A study of Mus musculus with 5 samples.

Results

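The 10 genes described here encode the 3 TGF-beta ligands (Tgfb1, Tgfb2, Tgfb3), their receptors (Tgfbr1, Tgfbr2, Tgfbr3) and the 4 latent TGF-beta binding proteins (Ltbp1, Ltbp2, Ltbp3, Ltbp4). They were taken by symbol from a table of 24062 genes, and all 10 were found and tested. RNA of mouse mitral valve leaflets was sequenced in 5 libraries, 2 titled wild type (WT) and 3 titled knockout (KO) of Ift88, a gene of the transport machinery that builds cilia. All 5 carry the NfatC1Cre driver, a Cre recombinase active in the endocardial lineage, so the WT animals are also Cre carriers and cells outside that lineage keep the intact gene in KO. The genotype field gives Ift88f/f to WT and Ift88+/+ to KO, the reverse of the titles, and the titles define the groups here. The sources used here give no age, sex or pooling of animals. No label states that each library is a separate animal, and p-values therefore cover only the spread between libraries.

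TGF-beta ligands are secreted as latent dimers that stay bound to their own propeptide, and LTBP1, LTBP3 and LTBP4 tether this latent complex to microfibrils of the matrix. Once released, the ligand binds the type II receptor TGFBR2, which phosphorylates the type I receptor TGFBR1, and the signal passes to SMAD2 and SMAD3. In the developing heart TGF-beta signalling takes part in the transition of endocardial cells to the mesenchyme of the cushions from which valves form, and in the adult valve it is known for driving matrix production by interstitial cells.

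Counted reads per library lay between 23361414 and 53789026, and levels are given as CPM, reads relative to library size after scaling by the trimmed mean method (TMM). Ift88 had 7.54 and 19.8 CPM in WT replicates 1 and 2 and 3.0, 3.92 and 0.409 in KO replicates 1, 2 and 3. Each KO library thus lay below both WT libraries, the direction the titles give, as was so for 11.1% of all genes tested. Its log2 fold change of KO against WT was -2.48 (SE 1.125, adjusted p = 0.81, edgeR quasi-likelihood test). The libraries differed in the levels of cell type markers. The 10 cardiomyocyte markers summed to 57730 CPM in WT replicate 1, 102 in WT replicate 2 and between 26650 and 34030 in KO. Single markers of that list differed more within KO than the sum. In KO replicates 1, 2 and 3, Myl2 had 4503, 723.6 and 512.5 CPM and Myl7 had 148.8, 5081 and 6871. In WT replicates 1 and 2, Myl2 had 8687 and 9.19 CPM and Myl7 had 555.9 and 10.1. Myl2 thus exceeded Myl7 in WT replicate 1 and KO replicate 1, and Myl7 exceeded Myl2 in KO replicates 2 and 3. Summed endocardial markers, 9 genes, stood at 290 CPM in WT replicate 1, 2410 in WT replicate 2 and 1668 to 2710 in KO, and the 9 interstitial markers at 2627, 7668 and 7302 to 10600. All 9 endocardial and all 9 interstitial markers had reads in the table. In whole tissue, fewer cells of a type and less RNA per cell cannot be told apart.

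**Figure D1:**
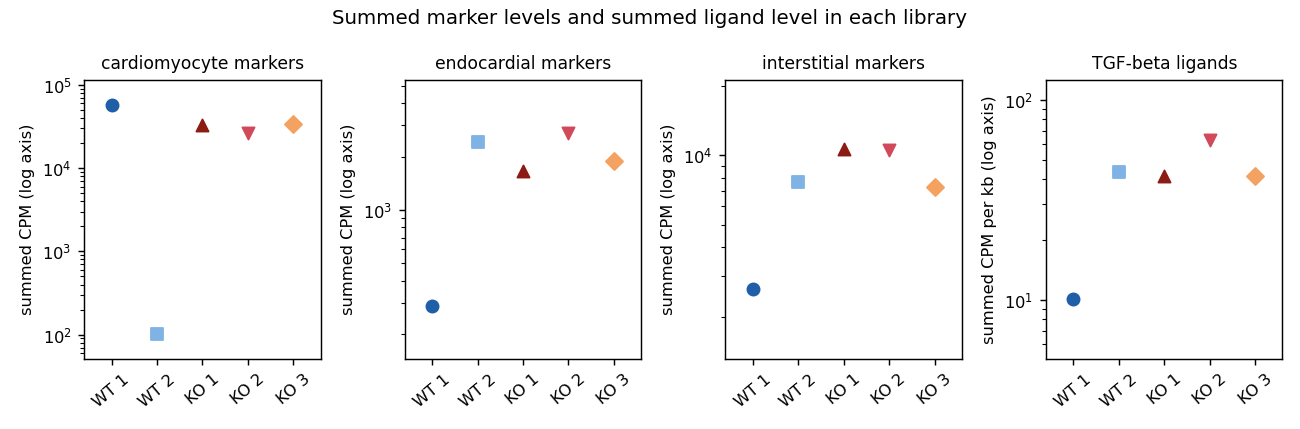
Summed level of the cardiomyocyte, endocardial and interstitial marker lists (CPM) and of the 3 ligands (CPM per kb of transcript) in each library, each panel on its own log axis, with 1 point per library. WT replicate 1 is lowest for endocardial markers (290), interstitial markers (2627) and ligands (10.1), and WT replicate 2 is lowest for cardiomyocyte markers (102).

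Across the 10 genes, Tgfb2, Tgfb3 and Ltbp4 stood above both WT libraries in all 3 KO libraries, none stood below in all 3, and 9 of 10 had a positive fold change of KO against WT. Their median log2 fold change was 0.97, against -0.01 over all 14244 genes tested, of which 49.4% were positive. No member was called by the edgeR quasi-likelihood test at a Benjamini-Hochberg adjusted p of 0.05 (adjusted p between 0.81 and 0.977), and neither was any other gene (0% called). In the same edgeR test, at an unadjusted p under 0.05, there was 1 member, Tgfb2, where 4.57% of all genes had such a p and were higher in KO. DESeq2, the edgeR likelihood ratio test and limma-voom also called 0 members, while DESeq2 called 2.41% of all genes by default and 1.36% with a prior on fold changes. Separation upward was seen in 3 of 10 members and in 13.5% of all genes tested. Separation downward was seen in 0 members and 11.1% of all genes. The members were chosen with earlier results of these data known, so these counts are description only. With 1 WT library left out, separation upward is a weaker criterion, met by 27.5% of all genes without WT replicate 1 and by 30.6% without WT replicate 2. With the trend of each library with transcript length removed, the members' median was 0.42, and 2 of 10 (Tgfb2 and Tgfb3, not Ltbp4) separated upward, as did 12.1% of all genes.

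The spread between the WT libraries was as large as most of these differences. WT replicate 1 lay below every KO library for 9 of the 10 genes, Tgfbr3 being the exception, and this held for 32.6% of all genes tested. WT replicate 2 lay inside the KO range for 4 genes (Tgfbr1, Ltbp1, Ltbp2, Ltbp3) and above it for Tgfb1 and Tgfbr2. It lay below every KO library for Tgfb2, Tgfb3, Tgfbr3 and Ltbp4, as it did for 30.1% of all genes tested. Between the WT libraries themselves the members differed by a median of 2.16 on the log2 scale, replicate 2 being higher, while the median over all genes was 0 and 12.9% of genes had a larger difference. WT replicate 1 was also low for endocardial and interstitial markers, whose part in these values was not tested.

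**Figure D2:**
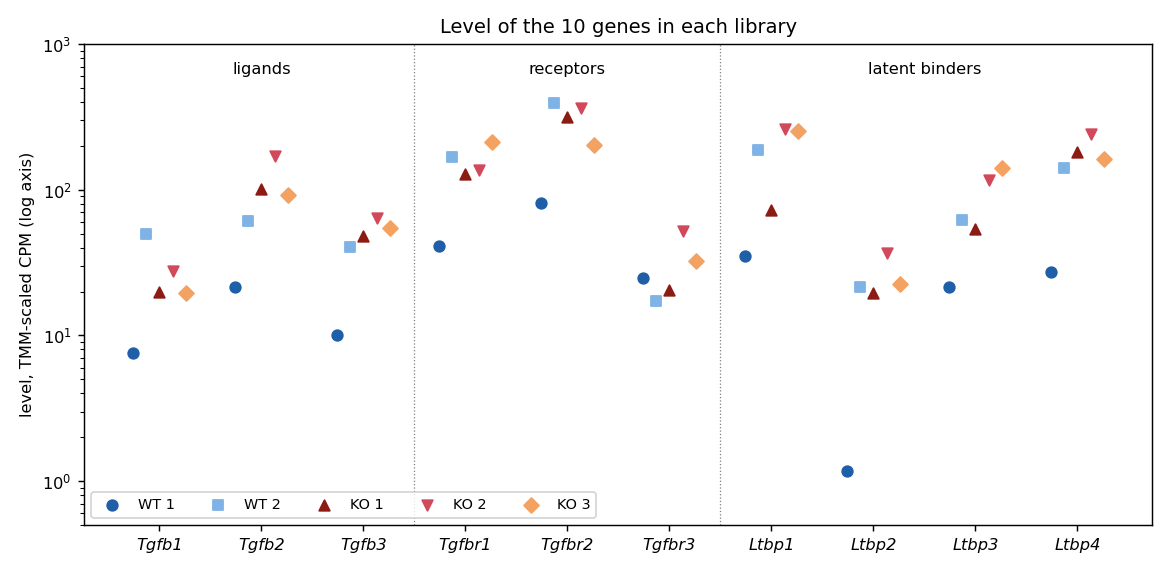
Level of the 10 genes in CPM after TMM scaling, log axis, with 1 point for each of the 5 libraries and dotted lines between ligands, receptors and latent binders. WT replicate 1 is the lowest point for every gene except Tgfbr3, and Tgfb2, Tgfb3 and Ltbp4 have both WT points below all 3 KO points.

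Among the ligands, Tgfb1 and Tgfb2 stood furthest apart, and the bases before their start sites are shown so that the pair can be compared. Tgfb1 lies on the plus strand of chromosome 7 (GRCm38, 25687002 to 25705077) and Tgfb2 on the minus strand of chromosome 1 (186622792 to 186705989). The 250 bases upstream of each RefSeq start in GRCm38.p6 are printed 5′ to 3′ on the strand of the gene, in lower case with matches to the SMAD-binding letters CAGAC, or GTCTG on the other strand, in capitals.
Tgfb2 (chr1:186705990-186706239, minus strand): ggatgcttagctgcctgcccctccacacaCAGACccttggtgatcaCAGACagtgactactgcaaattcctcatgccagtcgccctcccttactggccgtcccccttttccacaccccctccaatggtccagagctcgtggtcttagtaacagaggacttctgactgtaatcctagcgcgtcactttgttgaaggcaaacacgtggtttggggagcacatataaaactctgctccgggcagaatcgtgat
Tgfb1 (chr7:25686752-25687001, plus strand): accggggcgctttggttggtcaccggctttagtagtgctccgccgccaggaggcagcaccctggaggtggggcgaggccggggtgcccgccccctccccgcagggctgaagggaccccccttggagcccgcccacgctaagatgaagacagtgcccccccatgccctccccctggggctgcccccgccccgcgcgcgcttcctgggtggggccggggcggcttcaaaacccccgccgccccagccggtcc
The Tgfb2 stretch holds 2 matches, both CAGAC, with first bases 221 and 204 bases before the start, and that of Tgfb1 holds 0. Guanine and cytosine make up 53.6% of the Tgfb2 stretch and 75.2% of the Tgfb1 stretch. The letters occur in 42.2% of all 32851 promoter stretches of this length, so a match is a description of the sequence and not a site. Of the 8 members with a promoter in the table, 6 had a match in at least 1 of their promoters (7 of 12 promoters).

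Tgfb2, the ligand that loss-of-function studies tie most closely to cushion and valve development, had 21.6 and 61.1 CPM in WT replicates 1 and 2, and 101, 169 and 91.5 in KO replicates 1, 2 and 3. The groups did not overlap, and KO replicate 2 was the highest library. The 4 epicardial and mesothelial markers summed to 168 CPM in that library, which was also highest for Tgfb3, Tgfbr3, Ltbp1, Ltbp2 and Ltbp4, and to between 1.90 and 25.8 in the others, and their part in these values was not tested. The means were 41.4 ± 27.9 (SD, n = 2) in WT and 121 ± 42.5 (SD, n = 3) in KO. The log2 fold change was 1.54 (SE 0.58, unadjusted p = 0.0356, adjusted p = 0.81 in the edgeR quasi-likelihood test), the smallest p among the members and rank 590 among all genes. It was 0.95 without WT replicate 1 against 2.48 without WT replicate 2. Without KO replicate 2 it was 1.22, and with the length trend removed 1.25 (unadjusted p = 0.0555, edgeR quasi-likelihood test).

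Tgfb3, on the minus strand of chromosome 12 (86056745 to 86079041), encodes the ligand best known from palate fusion. Its levels were 10.1 and 40.5 CPM in WT against 48.2, 64.3 and 54.7 in KO. Every KO library again lay above both WT libraries, but the gap between WT replicate 2 and KO replicate 1 was smaller than the range within KO. Its log2 fold change was 1.14 (SE 0.64, adjusted p = 0.838, edgeR quasi-likelihood test), and 0.43 without WT replicate 1 against 2.47 without WT replicate 2.

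Tgfb1, the ligand most studied in fibrosis and immune regulation, was the 1 member with a negative fold change. It stood at 7.54 and 49.9 CPM in WT against 19.97, 27.8 and 19.5 in KO. WT replicate 2 was the highest library and WT replicate 1 the lowest, so the KO libraries fell between them. The log2 fold change of -0.36 (SE 0.79, adjusted p = 0.977, edgeR quasi-likelihood test) turned to 1.57 without WT replicate 2 and was -1.19 without WT replicate 1.

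Because a ratio of genes within a library does not move with the library scaling, the ligands were also compared as shares of their summed reads per kb of the longest transcript. Tgfb1 made up 28.9 and 44.8% of ligand reads per kb in WT and 18.6, 17.2 and 18.2% in KO. Both WT libraries lay above all 3 KO libraries, which lay close together (17.99 ± 0.714%, SD, n = 3). Tgfb2 took 41.7 and 27.6% in WT and 47.3, 52.6 and 43.0% in KO. For Tgfb3 the shares were 29.4 and 27.6% in WT and 34.1, 30.2 and 38.9% in KO. The KO minus WT differences were -18.9, 13 and 5.85 percentage points, each with an exact two-sided permutation p of 0.2 (adjusted p = 0.667 over the 10 shares within roles). This form of the test doubles the p of the smaller tail, and 0.2 is the smallest it gives for 2 against 3 libraries. The 3 shares make up the whole in each library, so these differences are tied and are not separate results. For Tgfb1 the difference was -26.8 points without WT replicate 1 against -10.9 without WT replicate 2. The Tgfb2 difference was 20.1 and 5.95 points in those cases. On raw reads the differences of Tgfb1 and Tgfb2 were -14.7 and 12.2 points with the same p, whereas that of Tgfb3 was 2.47 points (exact permutation p = 0.6).

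**Figure D3:**
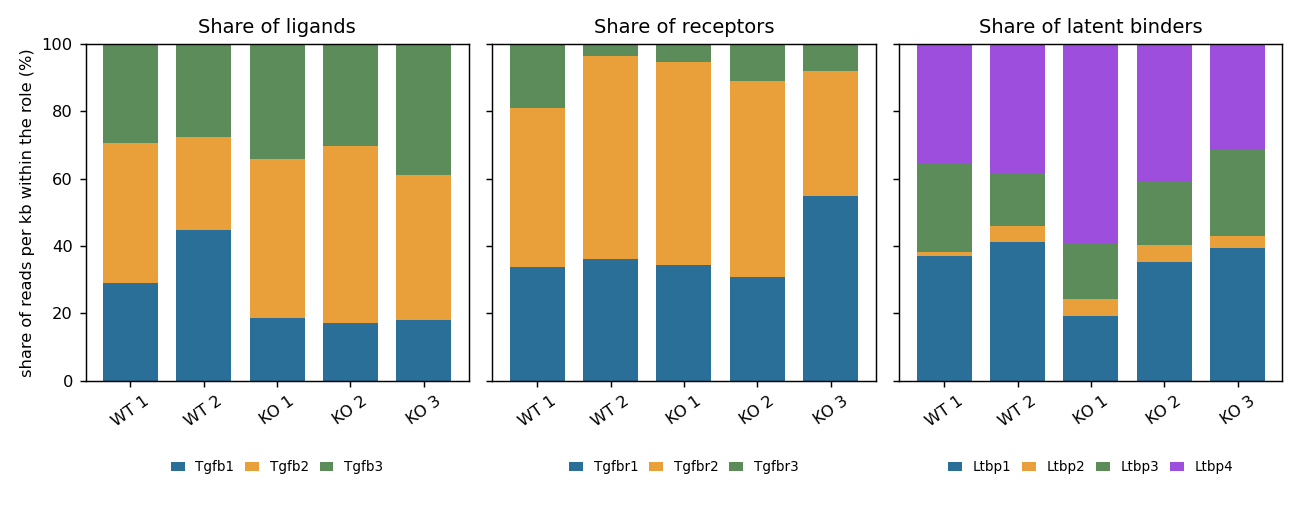
Share of each gene in the summed reads per kb of its role, in percent, as stacked bars from 0 to 100 for each library. The bottom segment of the ligand panel, Tgfb1, is 28.9 and 44.8% in WT and 17.2 to 18.6% in KO, and Tgfbr1 takes 54.9% of the receptors in KO replicate 3.

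Stated as raw reads, there were 2.87 and 1.23 Tgfb2 reads for each Tgfb1 read in WT replicates 1 and 2 and 5.07, 6.09 and 4.70 in KO. For Tgfb3 the ratio to Tgfb1 was 1.34 and 0.811 in WT and 2.41, 2.31 and 2.81 in KO. These ratios, chosen after the counts were seen, were separated between the groups in the way that 7.6% of all genes were when set over Tgfb1. Tgfb2 over Tgfb3 was 2.14 and 1.51 in WT and 2.10, 2.64 and 1.67 in KO, and there the groups overlapped.

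Set over the summed endocardial markers of the same library, Tgfb1 had 26 and 20.7 CPM per 1000 CPM of markers in WT and 12, 10.3 and 10.3 in KO, below both WT libraries in every KO library, as were 14% of all genes on that scale. Over the interstitial markers it had 2.87 and 6.51 in WT and 1.88, 2.64 and 2.67 in KO, again below, as were 29.2% of all genes. Tgfb2 on the interstitial scale had 8.23 and 7.97 in WT and 9.54, 16.1 and 12.5 in KO, above both WT libraries, as were 3.21% of all genes. On the endocardial scale Tgfb2 overlapped, with 74.7 and 25.4 in WT and 60.7, 62.5 and 48.2 in KO. These scalings were added after the data were seen. Both marker lists had positive fold changes of their own, in 9 of 9 endocardial and 8 of 9 interstitial markers, against 49.4% of all genes. Of these markers, 4 endocardial and 5 interstitial ones separated upward, where 13.5% of all genes did. On either scale 1 of the 10 genes lay above in every KO library, in place of 3. It was Tgfb2 on the interstitial scale and Ltbp2 on the endocardial one, where 2.63% of all genes did so.

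The signalling receptors showed no separation. Tgfbr2, the type II kinase that binds the ligand first (chromosome 9, 116084293 to 116175360), had 80.4 and 393 CPM in WT against 315, 365 and 203 in KO. WT replicate 2 was above every KO library. Its log2 fold change was 0.31 (SE 0.68, adjusted p = 0.977, edgeR quasi-likelihood test), -0.45 without WT replicate 1, 1.87 without WT replicate 2, and -0.51 once the trend of each library with transcript length was removed.

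Tgfbr1, the type I kinase that phosphorylates the SMADs (chromosome 4, 47353222 to 47414931), had 41.1 and 168 CPM in WT against 128, 137 and 213 in KO. WT replicate 2 lay within the KO range, and the log2 fold change was 0.61 (SE 0.63), -0.11 without WT replicate 1 against 1.96 without WT replicate 2. The reads of Tgfbr1 over those of Tgfbr2 per kb were 0.72 and 0.6 in WT, 0.573 and 0.528 in KO replicates 1 and 2, and 1.48 in KO replicate 3. KO replicate 3 thus stood apart from the other 4 libraries in having more Tgfbr1 than Tgfbr2 per kb.

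Tgfbr3, or betaglycan, is a co-receptor without kinase activity that presents ligand, TGF-beta 2 in particular, to the type II receptor (chromosome 5, 107106570 to 107289629). It had 24.6 and 17.2 CPM in WT against 20.5, 52.2 and 32.5 in KO, and WT replicate 1 lay within the KO range. This was the 1 member not lowest in WT replicate 1. Its share of receptor reads per kb was 19.1% in that library, 3.5% in WT replicate 2 and between 5.22 and 11.1% in KO. The log2 fold change was 0.75 (SE 0.54, adjusted p = 0.881, edgeR quasi-likelihood test), 0.35 without KO replicate 2 and 0.16 with the length trend removed. It was 0.99 without WT replicate 1 against 0.51 without WT replicate 2.

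Ltbp4, a binder of latent TGF-beta that also takes part in elastic fibre assembly (chromosome 7, 27305136 to 27337692), was the latent binder that separated. It had 27.0 and 141 CPM in WT against 182, 243 and 162 in KO. KO against WT gave a log2 fold change of 1.22 (SE 0.70, adjusted p = 0.842, edgeR quasi-likelihood test), 0.44 without WT replicate 1 against 2.86 without WT replicate 2. Removal of the length trend gave 0.89, and the groups then overlapped.

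Ltbp3, a latent binder known from bone and tooth development (chromosome 19, 5740904 to 5758532), had 21.4 and 61.5 CPM in WT against 54.1, 117 and 141 in KO. KO replicate 1 lay just below WT replicate 2, and the other KO libraries lay above it. Its log2 fold change of 1.33 (SE 0.64, unadjusted p = 0.0812, adjusted p = 0.81, edgeR quasi-likelihood test) was second in size to that of Tgfb2. Without WT replicate 1 it was 0.72, and without WT replicate 2 it was 2.28.

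Ltbp1, the founding latent binder (chromosome 17, 75005568 to 75392512), was the most variable member within KO. It had 34.9 and 187 CPM in WT against 72.7, 259 and 252 in KO, a 3.56-fold range among the KO libraries. The log2 fold change was 0.81 (SE 0.85). Leaving out WT replicate 1 gave 0.017, leaving out WT replicate 2 gave 2.48, and removal of the length trend gave 0.21. Per kb, Ltbp4 over Ltbp1 was 0.959 and 0.932 in WT, 3.11 in KO replicate 1, 1.16 in KO replicate 2 and 0.797 in KO replicate 3.

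Ltbp2, which binds fibrillin but not latent TGF-beta (chromosome 12, 84783212 to 84876532), had the widest gap between the WT libraries, 18.2-fold. It stood at 1.18 CPM in WT replicate 1, from 31 reads (95% exact Poisson interval 0.802 to 1.68, counting error only), and at 21.5 in WT replicate 2. KO held 19.7, 37.0 and 22.6, so WT replicate 2 fell inside the KO range. The log2 fold change of 1.22 (SE 1.12) was 0.26 without WT replicate 1 against 4.48 without WT replicate 2. An antisense gene, D030025P21Rik, shares 764 nt of exon with it, and the library kit does not mark strand.

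**Figure D4:**
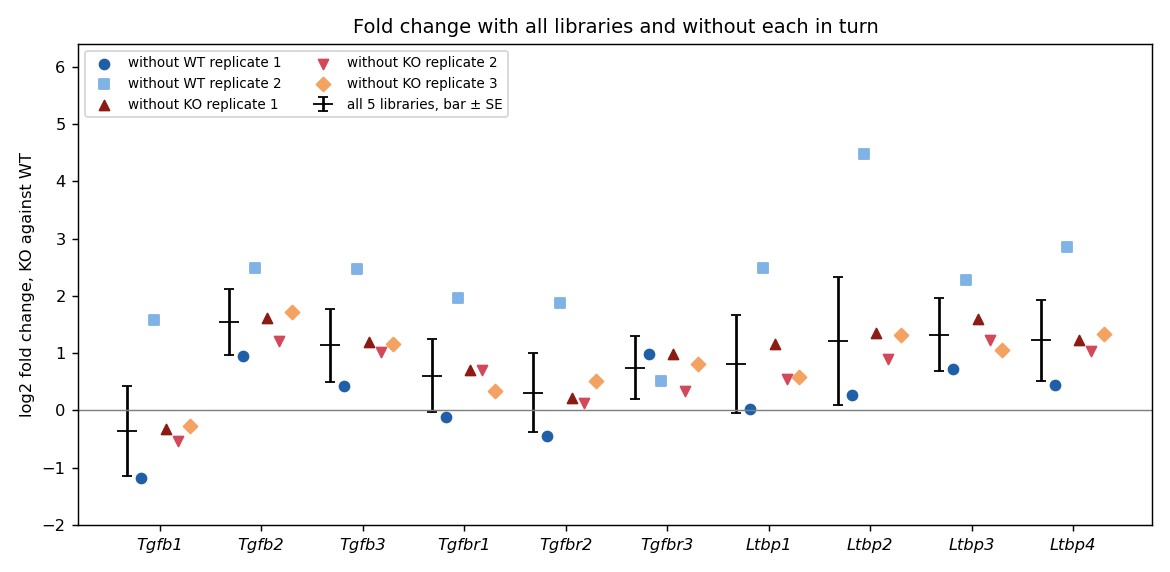
Log2 fold change of KO against WT for each gene with all 5 libraries (black, bar ± SE) and without each library in turn (coloured points). Points without WT replicate 2 are the highest for every gene except Tgfbr3, reaching 4.48 for Ltbp2, and points without WT replicate 1 are the lowest for every gene except Tgfbr3, at -1.19 for Tgfb1.

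Per kb of the longest transcript, and averaged over the 5 libraries, Tgfbr2 was the most abundant member at 33.5 CPM per kb. Ltbp4 (28), Ltbp1 (24.2) and Tgfbr1 (23.9) followed, then Tgfb2 (17.4), Ltbp3 (13.8), Tgfb3 (12.9) and Tgfb1 (9.70). Tgfbr3 (4.83) and Ltbp2 (3.01) came last. In all 9 pairs of neighbours in this order, the lower member exceeded the upper one in at least 1 library, so none of these neighbours differed beyond the spread. The place of Tgfb1 ranged from 5 in WT replicate 2 to 9 in WT replicate 1 and was 8 in all 3 KO libraries.

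Summed by role, ligands came to 10.1 and 43.3 CPM per kb in WT and 41.8, 62.9 and 41.6 in KO. Latent binders came to 14.2 and 68.1 in WT and 57.1, 110 and 95.8 in KO. The log2 ratio of summed binders to summed ligands was 0.48 and 0.65 in WT and 0.45, 0.8 and 1.2 in KO. The groups overlapped, with a difference of 0.25 (exact two-sided permutation p = 0.6).

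The genes whose pattern across the 5 libraries was closest to that of Tgfb2 were Cep85l, Colec12 and Hs6st2, with root mean square differences of 0.0841, 0.122 and 0.145 between log2 levels centred over the libraries, among all genes with a mean of at least 20 scaled reads. Cep85l encodes a centrosomal protein, Colec12 a scavenger receptor with a collagen-like domain, and Hs6st2 a heparan sulphate sulphotransferase. Colec12 stood at 12 and 41 CPM in WT against 65.4, 111 and 50.5 in KO. Of the members, Tgfb3 (0.284) and Ltbp4 (0.303) were the closest to Tgfb2, and Ltbp2 (0.875) the furthest.

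Other genes of the pathway were described in 6 lists, chosen with earlier results of these data known, so their counts are description only. Of these lists 80 genes were tested. None was called by the edgeR quasi-likelihood test (smallest adjusted p = 0.81), while 22 had an unadjusted p under 0.05, against 5.84% of all genes. DESeq2 called 11 of them with its default settings, which called 2.41% of all genes. The edgeR likelihood ratio test called 4 (0.351% of all genes) and limma-voom 0. Separation upward was seen in 36 of the 80 and downward in 2 (Bambi and Strap), where 13.5% and 11.1% of all genes separated, the shares beside which the counts of each list below are to be set, and the median log2 fold change was 0.82. Several of these genes are also markers of interstitial or smooth muscle cells (Dcn, Lum, Col1a1, Col3a1, Postn, Acta2, Tagln, Cnn1), whose summed levels differed between the libraries.

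Genes of the matrix that stores latent TGF-beta had the highest median of the 6 lists, 1.65, with 12 of 12 positive and 9 higher in every KO library. Fmod, or fibromodulin, a leucine-rich proteoglycan that binds TGF-beta, had 12.6 and 11.3 CPM in WT against 69.1, 47.3 and 87.5 in KO. Fbn2, which encodes the microfibril protein fibrillin 2, had 42.6 and 57.5 in WT and 150, 228 and 187 in KO. For both, edgeR's quasi-likelihood test gave an adjusted p of 0.81. With the length trend removed the log2 fold change of Fmod was 2.61 and that of Fbn2 0.78, and the median of the list was 0.89, below the 0.95 of the target genes, so the order of the lists was not kept.

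In the list for activation of the latent complex, 9 of 13 genes tested were positive and 8 higher in every KO library (median 0.62). Not every gene of this list is itself an activator. Thbs1 encodes thrombospondin 1, which releases TGF-beta from its propeptide. It had 26.7 and 77.8 CPM in WT against 195, 427 and 208 in KO (log2 fold change 2.41, SE 0.65, adjusted p = 0.81, edgeR quasi-likelihood test). Furin, the protease that cuts the TGF-beta precursor, had 7.23 and 13.6 in WT and 17.3, 38.9 and 73.6 in KO. Plat, tissue plasminogen activator, had the most negative fold change of the list, with 56.1 and 1677 in WT and 377, 310 and 173 in KO. Its log2 fold change of -1.59 was 2.35 without WT replicate 2 but -2.58 without WT replicate 1, when it was called (adjusted p = 0.0342, edgeR quasi-likelihood test, as were 1.6% of all genes). That fit has 1 WT library and so no spread between WT libraries.

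Of 9 accessory receptors and decoys, 6 were positive (median 0.40). Bambi, a decoy receptor that lacks the kinase domain, was lower in every KO library, at 134 and 181 CPM in WT against 74.6, 60.5 and 78.4 in KO. Its log2 fold change was -1.15 (SE 0.32, unadjusted p = 0.0113, adjusted p = 0.81, edgeR quasi-likelihood test). Vasn encodes vasorin, a membrane protein that binds TGF-beta, and had 6.81 and 6.07 in WT and 21.9, 23.6 and 19.4 in KO.

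The 9 signal transducers tested had a median of 0.89, with 7 positive and 4 higher in every KO library. Tgfb1i1, a focal adhesion adaptor also called Hic-5, had 79.9 and 66.2 CPM in WT against 121, 162 and 124 in KO. Trim33, a ubiquitin ligase that interacts with SMADs, had 4.99 and 1.77 in WT and 14.9, 11.8 and 17.5 in KO. Tab1, a partner of the kinase TAK1, had a log2 fold change of -0.10 (SE 0.48), with 15.4 and 20.4 in WT and 17.7, 16 and 16.6 in KO.

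Feedback inhibitors, 13 genes, had a median of 1.01, with 11 positive and 5 higher in every KO library. Not every gene of this list is itself a feedback inhibitor. Pmepa1, a TGF-beta-induced gene whose product binds SMADs and dampens the signal, had 5.37 and 4.49 CPM in WT against 29.5, 24.9 and 13.7 in KO (log2 fold change 2.2, SE 0.63, adjusted p = 0.81, edgeR quasi-likelihood test). Smurf1, a ubiquitin ligase that targets the receptors, had 6.89 and 7.73 in WT and 14.0, 25.5 and 32.1 in KO. Strap, a receptor-associated WD-repeat protein, was lower in every KO library, at 372 and 381 in WT and 338, 263 and 347 in KO, but its log2 fold change was only -0.25 (SE 0.32).

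The 24 target genes had a median of 0.51, with 16 positive and 9 higher in every KO library. Tnc, which encodes tenascin C, and Col1a1, a chain of type I collagen, had the smallest p of the list, with log2 fold changes of 3.75 and 3.08 (adjusted p = 0.81 for both, edgeR quasi-likelihood test). Timp1, an inhibitor of matrix metalloproteinases, had the lowest fold change, -1.02, from 41.0 and 229 CPM in WT against 75.3, 56.3 and 68.8 in KO. It was 0.70 without WT replicate 2, and the median of the list was then 1.54. Leaving out WT replicate 1 gave a median of 0.15, and removal of the length trend gave 0.95.

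**Figure D5:**
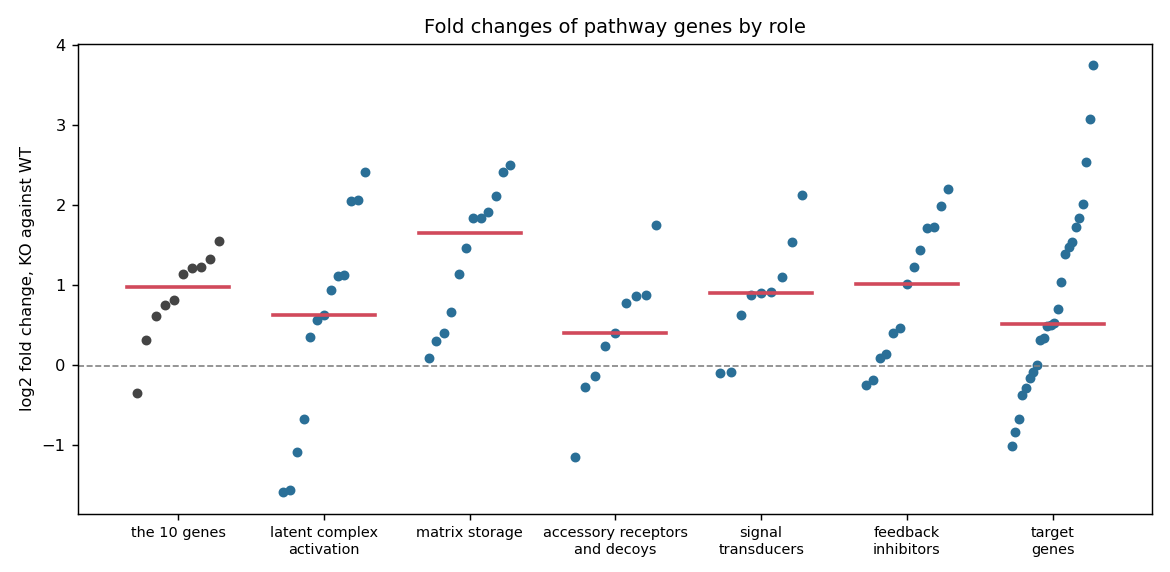
Log2 fold change of KO against WT for each tested gene of the 10 members (dark) and of the 6 pathway lists (blue), with the median of each list as a red line and the median of all genes as a dashed line. The matrix storage list has the highest median here (1.65) and the 10 members have 0.97, but with the length trend removed these were 0.89 and 0.42, and the target genes had the highest (0.95).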

How the data were processed

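The deposited table holds whole-number read counts per gene for the 5 libraries; only these counts were used. The SMART-Seq v4 kit was used, per the labels' protocols, and amplifies full-length cDNA without marking strand. The submitters' processing notes name FastQC 0.11.5, cutadapt 1.11, HTSeq, DESeq2, GRCm38 and mm10. No source used here gives the aligner.

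The analysis used edgeR 4.0.16 (R 4.3.3): filterByExpr, which kept 14244 of 17148 genes that had any read, TMM scaling, and a robust, two-sided quasi-likelihood F test with Benjamini-Hochberg adjustment over all genes kept. Replicate variation was large, a median biological coefficient of variation of 62.8%. On simulated counts with these dispersions, the test found 1 of 99 genes changed 4-fold and 45 of 96 changed 16-fold. It also made 11 false calls among 13481 unchanged genes, a larger share of its calls than the nominal 0.05. Alternatives used DESeq2 1.42.0, limma 3.58.1, other filters and scalings, each library left out, the 3 libraries whose titles share a code, and offsets for transcript length. Shares were compared by an exact permutation test (SciPy 1.17.1). Lengths and positions come from GENCODE (GRCm38), by the longest transcript, with 22750 symbols matched directly, 935 through older symbols and 377 unmatched. Promoters are from RefSeq (GRCm38.p6).

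Members and lists were chosen with earlier results of these data known. Named genes of each list are the 2 with the smallest p and the most negative fold change among those with at least 20 scaled reads. Replicate numbers follow the order of deposit, so they pair nothing. Some exon overlaps of members with other genes are not reported here.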

Additional observations from a re-analysis of the deposited data

How the results depend on the processing

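With the other filters, scalings and tests, and with the length trend removed, 0 members were called. The count of members higher in every KO library ranged from 3 to 9 when each library was left out. It was 3 without KO replicate 2, beside 2327 of 13745 genes, and 3 without KO replicate 3, beside 3014 of 14041 genes. The count was 9 without WT replicate 2 (30.6% of all genes) and 7 without KO replicate 1 (2772 of 13837 genes). In the 3 libraries whose titles share a code it was also 9, where 6200 of 15039 genes separated upward. With fewer libraries this criterion is weaker. On each marker scale (endocardial, interstitial) the count was 1, beside 2.63% and 3.21% of all genes. The members' median ranged from 0.34 (without WT replicate 1) to 2.37 (without WT replicate 2) and was 2.16 in the libraries with the shared code and 0.42 with the length trend removed, when 2 members were higher in every KO library. The Tgfb1 share difference ranged from -26.8 to -10.9 points, and was -11.0 in the shared-code libraries. Among pathway genes, 0 to 5 were called when each library was left out (5 without WT replicate 1: Tnc, Col1a1, Col1a2, Cnn1 and Plat), 11 by DESeq2 with default settings, 11 by DESeq2 with a prior on fold changes, and 4 by the likelihood ratio test (Tnc, Col1a1, Col1a2, Fmod). These names were read off after the calls. The cause of these shifts was not tested.

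Directions turned as follows. Leaving out each library gave log2 fold changes of -1.19 to 1.57 for Tgfb1, -0.11 to 1.96 for Tgfbr1, -0.45 to 1.87 for Tgfbr2, -2.58 to 2.35 for Plat, -0.32 to 0.12 for Tab1 and -1.81 to 0.70 for Timp1. The shared-code libraries gave 1.66 for Tgfb1, 2.61 for Plat, 0.13 for Tab1 and 0.68 for Timp1, and removal of the length trend gave -0.51 for Tgfbr2 and 0.054 for Tab1. Share differences with a library left out ranged from -2.39 to 9.70 points for Tgfbr1 (lowest without KO replicate 3), -8.43 to 5.55 for Tgfbr2 (4.83 without WT replicate 2), -11.05 to 4.57 for Tgfbr3, -0.147 to 3.28 for Ltbp2, -6.14 to 4.49 for Ltbp3 (1.04 without KO replicate 1) and -0.67 to 13.2 for Ltbp4. In the shared-code libraries they were -1.21 for Tgfbr1 and 12.2 for Tgfbr2. Fits without a WT library hold 1 WT library and no spread between WT libraries. No paired analysis was possible because replicate numbers come from the order of deposit, and the 1 title code found in both groups, which no label calls a litter or animal, covers 1 WT and 2 KO libraries and matches none of them one to one. The comparison within that code is the shared-code fit given above.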
